A study of Sus scrofa with 3 samples.

Results

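The solute carriers on the porcine array were genes whose single annotated symbol began with SLC and a number. The array named 120 such genes, of 6765 genes with a single symbol, and 101 of them gave a signal above the background floor on at least 1 array, of 6274 genes measured in all. The genes were read on 176 probe sets, and a gene with several was represented by the probe set of highest mean log2 signal. Solute carriers are membrane proteins that move amino acids, sugars, metals, vitamins, nucleotides and ions across the plasma membrane or an organelle membrane, by facilitated diffusion or by coupling to a sodium or proton gradient. Family numbers group carriers by sequence, and a family mostly shares a class of substrate. In teeth they are best known from enamel formation, in which secretory and maturation ameloblasts move calcium, phosphate, bicarbonate and protons across the cell layer.

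The data came from tooth germs of Wuzhishan miniature pigs, hybridized to the Affymetrix Porcine Genome Array with 1 array for each of 3 embryonic stages. On E40 the last deciduous molar of the mandible was at the cap stage and had no secondary dental lamina. On E50 it was at the bell stage, with the secondary dental lamina beginning. On E60 the sources call it secretory in one place and late bell in another. No treatment or genetic change was involved. Each array held a pool of germs, with the dental lamina attached, from 1 litter, so stage and litter cannot be told apart and no spread between replicates exists. A fold change below is a ratio of signals on a pair of arrays, with no p-value or error, and a gene was called higher or lower when that ratio passed 2-fold. The germs were bulk tissue, in which fewer cells of a type and less RNA per cell cannot be told apart.

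The deposited signals were log2 values of MAS 5.0, shown here as linear signals, and the mean of the middle values, leaving out 2% at each end, was 500.1 on every array. The floor was the 25th percentile of each array, at 29.3 for E40, 17.2 for E50 and 21.8 for E60. A ratio with a signal under its floor was taken against that floor and is given as "at least". The labelled tissue was checked against marker lists, with signals summed per list. The 4 ameloblast markers summed to 147.8 (E40), 5132.1 (E50) and 59202.3 (E60), and the 4 odontoblast and dental mesenchyme markers to 3911.8, 3980.8 and 9350.9. In the latter list DSPP gave 3.6, 80.3 and 4194.5, while MSX1 gave 1559.0, 737.1 and 1213.7. All 10 skeletal muscle markers were measured and summed to 34298.1, 811.0 and 3493.0, and 4 of them were under the floor on E60. The E60 sum was carried by MYL1, at 3266.3. The other 9 markers summed to 27181.7, 329.8 and 226.7, and 7 of them were lower on E60 than on E50. MYL1 was set apart after the values were seen. The 5 keratinised epithelium markers summed to 15051.9, 3721.0 and 4193.3. Of these, 4 were called lower on E50 versus E40, while KRT10 went the other way, at 1320.7, 1713.5 and 2275.5. KRT10 and FABP5 (4372.0, 1838.8 and 1806.3) carried most of the E50 and E60 sums. Fewer than the listed markers had a symbol or a measured signal in the remaining lists. The 4 measured erythroid markers summed to 2466.7, 2073.9 and 2717.7, the 4 endothelial markers to 2478.9, 1242.1 and 2082.0, the 2 Schwann and nerve markers to 402.5, 873.8 and 892.9, and the 4 macrophage and osteoclast markers to 2444.4, 2693.2 and 2534.8. The muscle, keratinised and endothelial sums were thus highest on E40, the array on which most of the called solute carriers were also highest. The endothelial sum was lowest on E50. The part of these tissues in the results below was not tested.

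Of the 101 measured genes, 79 stayed within 2-fold in all 3 pairs of stages, and 22 passed 2-fold in at least 1 pair. Of those 22 genes, 19 were lower and 6 were higher in some pair, with SLC15A2, SLC2A4 and SLC36A2 counted on both sides. The share of all genes past 2-fold in at least 1 pair was not counted. Counts over any pair, here and per class below, thus have no background, unlike the counts per pair that follow. On E50 versus E40, 0 of 99 tested solute carriers were higher and 12 were lower (12.1%), against 2.73% higher and 7.98% lower over all 6192 tested genes. Between E60 and E50, 4 of 100 solute carriers were higher (4%) and 1 was lower (1%) on E60, against 4.37% and 1.75% of 6178 genes. The E60 array against the E40 array gave 3 of 100 solute carriers higher (3%) and 12 lower (12%), against 4.44% and 7.21% of 6197 genes. The median log2 fold change of the solute carriers was -0.09, 0.18 and -0.02 in the 3 pairs, against 0.04, -0.04 and -0.01 over all genes.

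**Figure D1:**
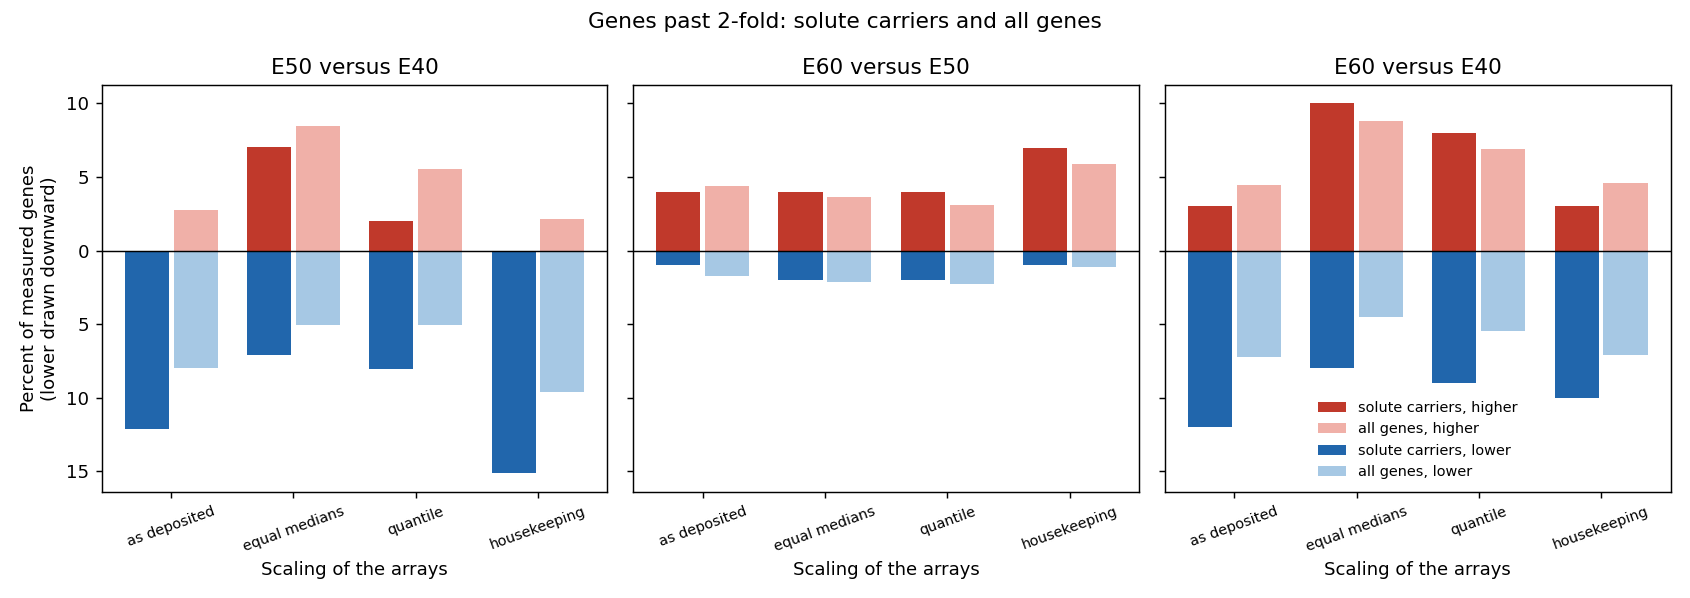
Percent of tested genes (vertical axis, from 0) past 2-fold in either direction, per pair of stages, for the solute carriers and for all genes with 1 symbol, without error bars because each stage had 1 array. As deposited, lower calls against E40 were 12.1% (E50) and 12% (E60) of solute carriers, against 7.98% and 7.21% of all genes. Among dimmer genes alone the shares were close, at 14.9% against 14.6% on E50 and 14.7% against 13% on E60.

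The higher share of lower calls has to be read with the level of the genes, because 75 of 100 solute carriers tested on E60 versus E40 lay in the dimmer range, below the median mean signal of all measured genes. Within that range the solute carriers were close to the background. On E50 versus E40, 11 of 74 dimmer solute carriers were lower (14.9%), against 14.6% of 3055 dimmer genes. On E60 versus E40 the shares were 14.7% of dimmer solute carriers and 13% of dimmer genes. Among brighter genes, 1 of 25 solute carriers was lower in each of these pairs (4%), against 1.53% of 3137 genes. The count of lower calls is therefore not a result about solute carriers as a set, and the description below is of the individual carriers and of their substrate classes.

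The split of calls also moved with the scaling. For E50 versus E40 it was 0 higher and 12 lower as deposited, 7 and 7 with arrays set to equal medians, 2 and 8 after quantile normalization, and 0 and 15 after scaling on housekeeping genes. For E60 versus E50 the splits were 4 and 1 as deposited, 4 and 2, 4 and 2, and 7 and 1 under the same scalings. For E60 versus E40 they were 3 and 12 as deposited, 10 and 8, 8 and 9, and 3 and 10. Setting equal medians put the median log2 fold change of all genes at 0.43, -0.11 and 0.30 in these 3 pairs, so directions below hold relative to the deposited scale. Setting the highest of the 3 floors on every array removed SLC15A2, SLC2A4 and SLC36A2 from the 4 genes higher on E60 versus E50 and left SLC15A1, and it removed SLC36A2 from the genes lower on E50 versus E40. Relative to the median of all genes, the median of the solute carriers was -0.13, 0.22 and -0.01 in the 3 pairs as deposited and 0.01, 0.16 and 0.09 after quantile normalization.

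Peptide carriers showed the widest changes of the family. SLC15A1 (PEPT1), which takes up dipeptides and tripeptides together with protons and is best known from the small intestine, had signals of 22.8, 52.6 and 422.6 on E40, E50 and E60, the first under the floor. The E60 signal was 8.04-fold higher than on E50 and at least 14.4-fold higher than on E40, the largest rise among the called solute carriers in either pair. SLC15A2 (PEPT2), the high-affinity peptide carrier of kidney and brain, ran the other way at the first step. Its signals were 218.4, 18.2 and 53.0 from E40 to E60, so that E50 was 12.0-fold lower than E40, and E60 was 2.92-fold higher than E50 and 4.12-fold lower than E40. The E50 signal lay just above its floor of 17.2, and the first ratio, -3.59 on the log2 scale, was -2.90 with the highest floor on every array, -2.67 averaged over the probe sets and -0.80, no longer a call, with the floor at the 50th percentile. The 2 other probe sets of SLC15A2 had the same order of stages, at 102.9, 29.5 and 50.7 on one and 104.3, 17.1 and 39.6 on the other. SLC15A1 and SLC15A2 thus had their highest signals at opposite ends of the series, SLC15A1 on E60 and SLC15A2 on E40.

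Among the 19 amino acid and peptide carriers, 16 were measured and 6 were called in some pair. At the first step, E50 versus E40, 3 of the 16 were lower and none higher (0). At the second, 3 were higher and 0 lower, and over both steps 2 were higher and 2 lower. Over all tested genes, 7.98% were lower at the first step and 4.37% higher at the second. Among dimmer genes these shares were 14.6% and 7.5%. Over both steps, 4.44% of all genes were higher and 7.21% lower. With 16 genes and level not matched, these counts are not a result about the class. SLC1A1, the glutamate and cysteine carrier EAAT3, had signals of 314.7, 157.1 and 216.0 and was 2.003-fold lower on E50 versus E40, a ratio just past the limit that was not called with equal medians or after quantile normalization. Of its 4 other probe sets, 3 were not measured and the remaining one was 1.58-fold lower in the same pair. SLC1A6, the glutamate carrier EAAT4 known from cerebellar Purkinje cells, declined at both steps, with signals of 429.7, 305.6 and 154.3, and was 2.79-fold lower on E60 versus E40. SLC1A4, an exchanger of neutral amino acids such as serine and alanine, had signals of 29.3, 52.6 and 61.7, the first just above its floor, and was 2.10-fold higher on E60 versus E40. SLC36A2, a proton-coupled carrier of glycine and proline, had signals of 40.2, 16.5 and 43.8, with the E50 signal under the floor. It was at least 2.34-fold lower on E50 versus E40 and at least 2.54-fold higher on E60 versus E50, and its E60 and E40 signals differed by 1.09-fold. The first of these calls was also lost with equal medians and after quantile normalization. Called amino acid carriers thus included dips on E50 as well as steady declines and rises.

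The other 10 measured amino acid carriers stayed within 2-fold in all pairs. SLC1A5, a glutamine exchanger, gave 878.0, 918.6 and 776.2, and SLC7A1, a carrier of arginine and lysine, gave 637.5, 472.5 and 610.6. SLC3A2, the heavy chain with which several amino acid exchangers reach the cell surface, gave 221.6, 209.6 and 307.3. SLC38A9, the lysosomal carrier that reports arginine to the growth regulator mTORC1, gave 587.8, 565.2 and 964.1, a ratio of 1.71 on E60 versus E50. SLC38A9 was among the 10 highest ratios of that pair, and the other 3 genes were chosen for naming after their values were seen. SLC7A7, a light chain that pairs with SLC3A2, gave 104.6, 126.9 and 93.2. SLC38A1, SLC38A10, SLC3A1, SLC7A4 and SLC1A2 were also measured and not called.

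**Figure D2:**
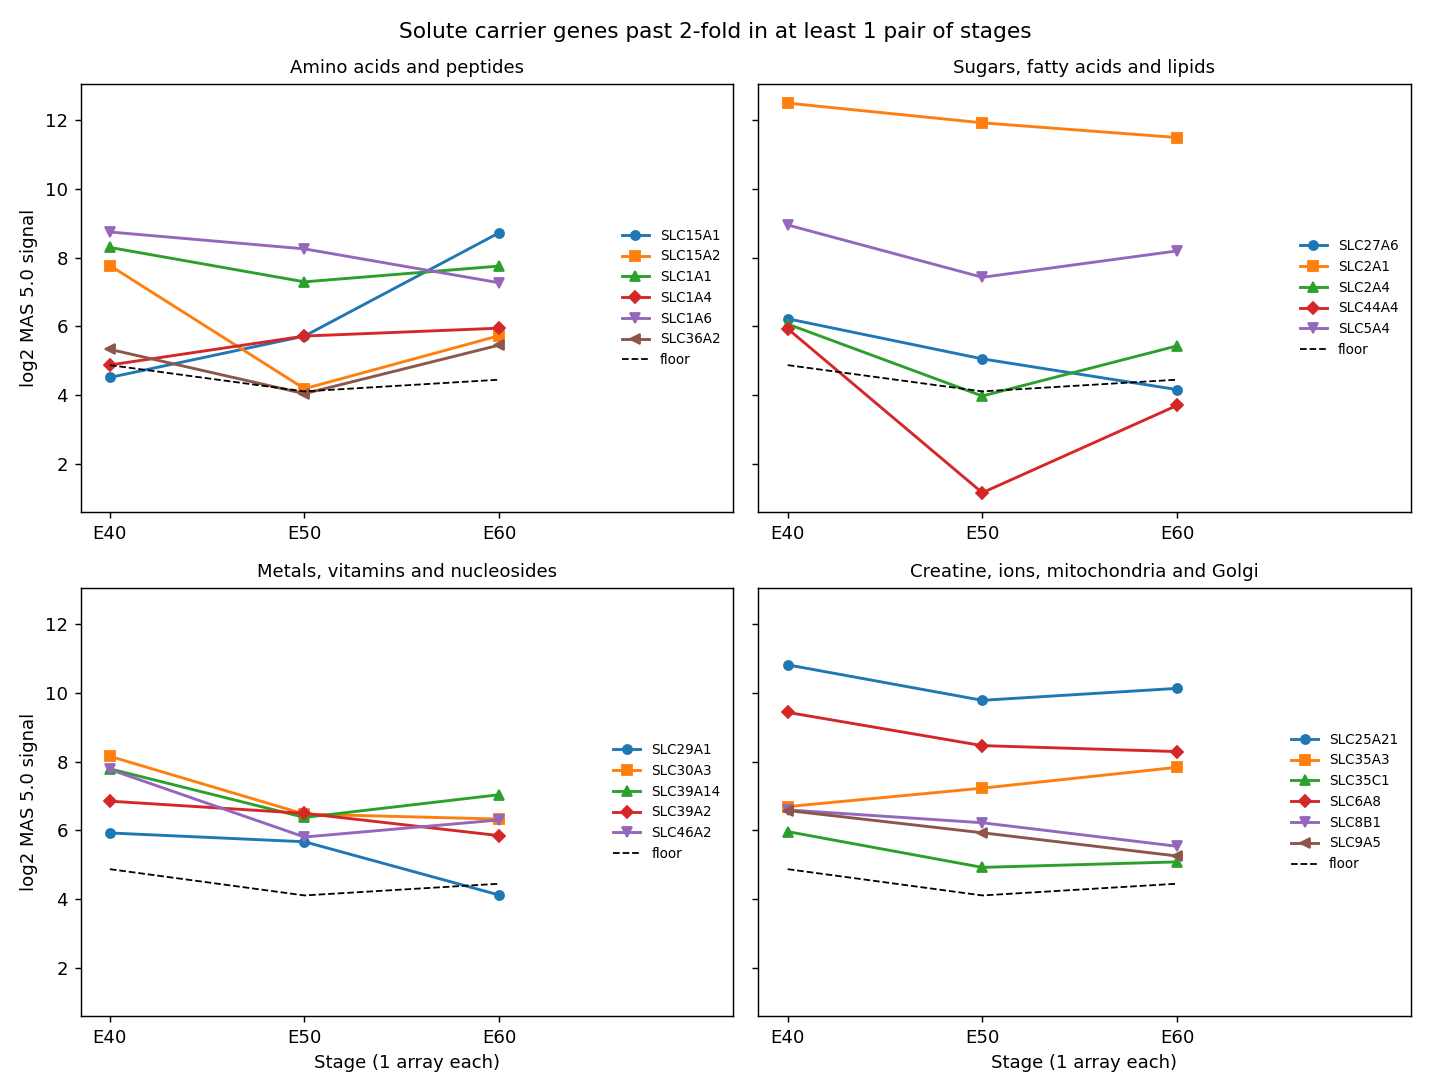
Signal on a log2 scale against stage (E40, E50, E60) for the 22 solute carriers past 2-fold in at least 1 pair, grouped by substrate class, with 1 array per stage and no error bars. In linear signal, SLC15A1 climbs to 422.6 on E60 while SLC15A2 dips to 18.2 on E50, and SLC2A1 steps down at each stage to 2889.8 on E60.

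Of the 15 sugar carriers, 14 were measured and 3 were called. SLC2A1 (GLUT1), the widely expressed glucose carrier, had signals of 5786.5, 3888.5 and 2889.8, which stepped down at each stage and passed the limit on E60 versus E40 at 2.002-fold lower. It was the 1 called gene of the brighter range that was lower in that pair, and it was no longer called with arrays set to equal medians or scaled on housekeeping genes. SLC2A4 (GLUT4), the insulin-responsive glucose carrier of muscle and fat, had signals of 67.1, 15.7 and 43.1, with the E50 signal under the floor. It was at least 3.89-fold lower on E50 versus E40 and at least 2.50-fold higher on E60 versus E50, while the E60 signal was within 2-fold of E40. The 10 muscle markers summed to 34298.1, 811.0 and 3493.0, the same order of stages as SLC2A4, with MYL1 at 7116.4, 481.2 and 3266.3. Without MYL1 the sums were 27181.7, 329.8 and 226.7, highest on E40 and lowest on E60. The part of muscle in the SLC2A4 values was not tested. The other probe sets of SLC2A4 were under the floor on all arrays. SLC5A4 (SGLT3), of the sodium-glucose family, had signals of 494.9, 172.2 and 293.1 and was 2.87-fold lower on E50 versus E40.

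The remaining sugar carriers stayed within 2-fold. SLC2A3 (GLUT3), a high-affinity glucose carrier best known from neurons, gave 941.6, 1251.7 and 989.0. SLC2A5 (GLUT5), the fructose carrier, gave 1111.9, 1765.0 and 1592.7 and was called higher on E50 versus E40 only with arrays set to equal medians. SLC37A4, which brings glucose 6-phosphate into the endoplasmic reticulum, gave 911.8, 1029.3 and 1065.6, and its relative SLC37A1 gave 77.1, 99.4 and 137.2. SLC5A1 (SGLT1), the intestinal sodium-glucose carrier, gave 65.3, 36.9 and 58.5. It lies next to SLC5A4 in the reference annotation and had the same order of stages. SLC2A8, SLC2A12, SLC5A10, SLC45A2, SLC45A3 and SLC50A1 were also measured, and SLC2A2 (GLUT2), the liver and islet glucose carrier, was not.

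The 8 genes for carboxylates, fatty acids and lipids included 7 measured and 2 called, both lower against E40. SLC27A6, a fatty acid transport protein known from heart, had signals of 74.6, 33.2 and 17.9, the last under the floor, and was 2.25-fold lower on E50 versus E40 and at least 3.42-fold lower on E60 versus E40. The call on E50 was lost with equal medians and after quantile normalization, and the other probe sets of SLC27A6 were under the floor on all arrays. SLC44A4, of the choline transporter-like family, had a signal of 61.0 on E40 and was under the floor at 2.2 on E50 and 12.97 on E60, which was at least 3.54-fold and at least 2.80-fold lower. SLC16A3 (MCT4), which exports lactate from glycolytic cells, gave 231.9, 388.5 and 420.9, a ratio of 1.81 on E60 versus E40 that was called with equal medians and after quantile normalization. SLC33A1, the acetyl-CoA carrier of the endoplasmic reticulum, gave 262.2, 329.4 and 489.3, with a ratio of 1.87 in the same pair that was called under those same scalings. SLC27A1, SLC44A2 and SLC16A13 were within 2-fold in all pairs.

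**Figure D3:**
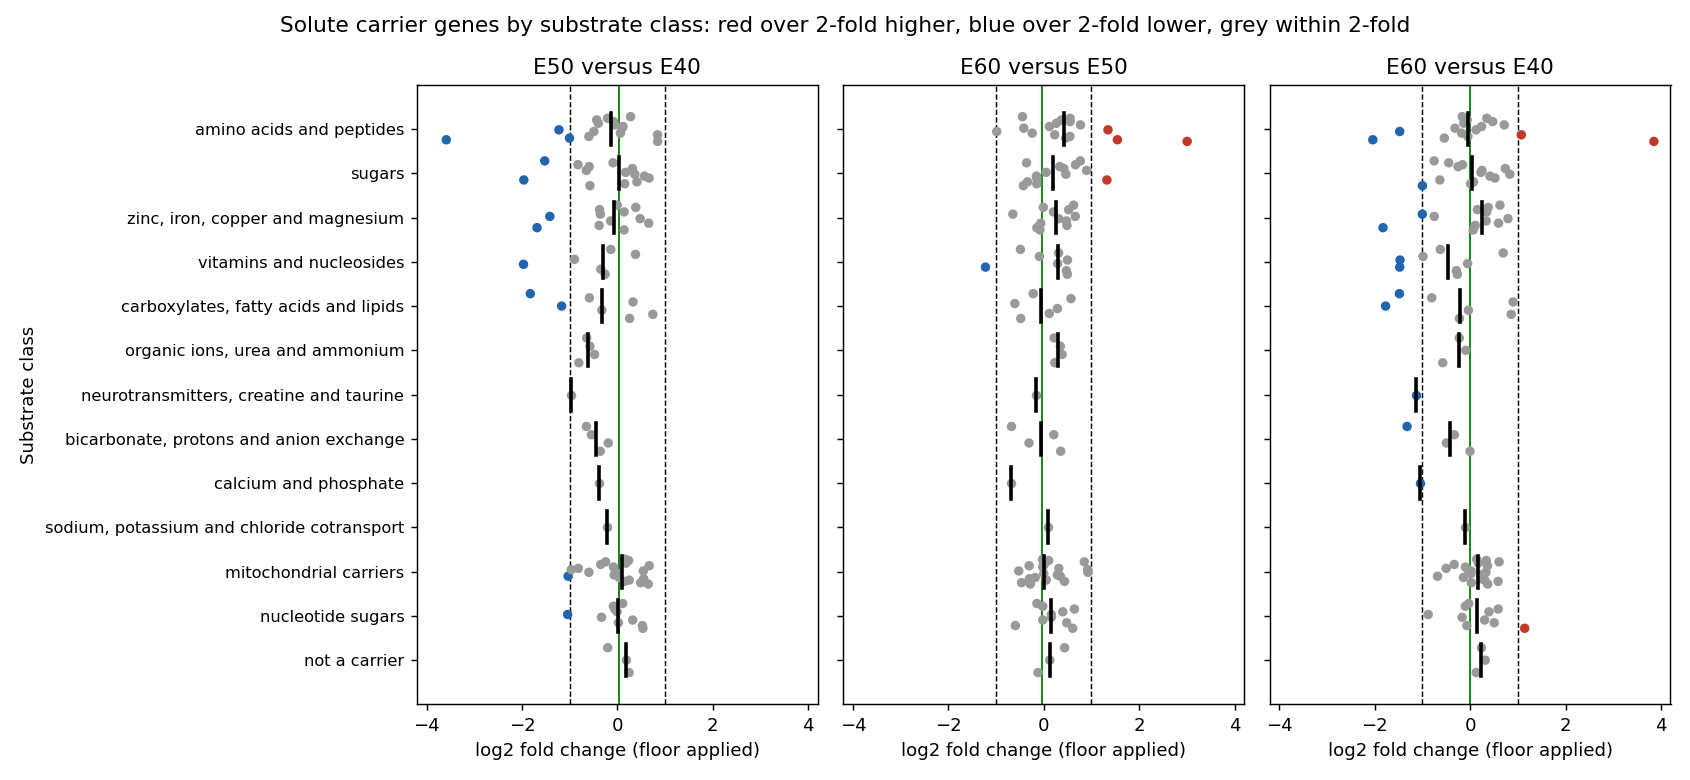
Log2 fold change of each tested solute carrier (points) in each pair of stages, by substrate class, with dashed lines at the 2-fold limit and no error bars because each stage had 1 array. Among mitochondrial carriers only SLC25A21 lies past a dashed line, while amino acid and peptide carriers spread widest, with SLC15A1 and SLC15A2 at the ends. The classes were not matched for signal level.

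Metal carriers comprised 13 genes for zinc, iron, copper and magnesium, of which 12 were measured and 3 were called, all lower against E40. SLC30A3 (ZnT3), known for loading zinc into synaptic vesicles, had signals of 285.5, 88.9 and 80.4 and was 3.21-fold lower on E50 and 3.55-fold lower on E60, each versus E40. Its other probe set gave 75.0, 27.2 and 8.2, was 2.76-fold lower on E50 versus E40 and passed the limit in both pairs too. SLC39A14 (ZIP14), an importer of zinc, iron and manganese, had signals of 221.6, 83.1 and 131.5 and was 2.67-fold lower on E50 versus E40. Its other probe set gave 22.70, 3.11 and 59.998, was above its floor only on E60 and was at least 2.05-fold higher on E60 versus E40, where the chosen probe set was 1.69-fold lower. SLC39A2 (ZIP2), a zinc importer, had signals of 115.4, 90.2 and 57.6 and was 2.005-fold lower on E60 versus E40, a call lost under each of the 3 other scalings. The called metal carriers thus comprised a zinc exporter and a pair of ZIP importers.

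General zinc and copper importers showed other orders of stages and no call. SLC39A1 (ZIP1) gave 644.6, 897.7 and 1116.6, a ratio of 1.73 on E60 versus E40, and was called higher with equal medians. Its other probe set gave 724.9, 859.2 and 707.2, and was 1.03-fold lower in that pair. SLC31A1 (CTR1), the copper importer, gave 598.9, 945.2 and 904.3, a ratio of 1.58 on E50 versus E40, and was also called higher with equal medians. SLC41A1, a magnesium carrier, gave 263.2, 262.8 and 405.4. SLC11A2 (DMT1), SLC39A4, SLC39A5, SLC39A7, SLC30A5 and SLC31A2 were within 2-fold as well, and SLC11A1, the phagosomal metal carrier of macrophages, was not measured.

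Of the 10 genes for vitamins and nucleosides, 8 were measured and 2 were called. SLC46A2, a relative of the folate carrier that was first described in thymic stroma, had signals of 218.9, 56.0 and 79.0 and was 3.91-fold lower on E50 and 2.77-fold lower on E60, each versus E40. SLC29A1 (ENT1), the equilibrative nucleoside carrier, had signals of 60.8, 50.9 and 17.4, the last under the floor, and was at least 2.33-fold lower on E60 versus E50 and at least 2.79-fold lower on E60 versus E40. It was the only solute carrier called lower on E60 versus E50, and that call was lost when the highest of the 3 floors was set on every array. SLC52A2, a riboflavin carrier, gave 315.0, 410.1 and 509.2. SLC46A1, the proton-coupled folate carrier, gave 264.6, 208.3 and 254.9, and SLC5A6, the sodium-dependent multivitamin carrier, gave 440.8, 400.9 and 285.5. SLC46A3 gave 43.3, 23.2 and 21.3, just under the limit at 1.86-fold lower on E50 versus E40 and at least 1.99-fold lower on E60 versus E40.

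SLC6A8, the creatine carrier, had signals of 692.3, 354.0 and 314.0. It was 1.96-fold lower on E50 versus E40, within the limit, and 2.20-fold lower on E60 versus E40, past it. Creatine uptake is prominent in muscle. The muscle markers summed to 34298.1, 811.0 and 3493.0 over the same arrays, and to 27181.7, 329.8 and 226.7 without MYL1. Their part in the SLC6A8 values was not tested. The SLC6A8 call was lost with arrays set to equal medians. The only other member of the neurotransmitter class was SLC6A4, the serotonin carrier, which was not measured.

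Carriers tied to mineral ions and pH were few on this array, and many were under the floor. Of 9 genes for bicarbonate, proton and anion exchange, 4 were measured, and SLC9A5 (NHE5), a sodium-proton exchanger, was the only one called. Its signals were 95.6, 61.0 and 38.2, falling at each step, which was 2.50-fold lower on E60 versus E40 and not called after quantile normalization, and its other probe set gave 55.8, 22.7 and 31.6. SLC4A2 (AE2), the chloride-bicarbonate exchanger known in ameloblasts from mouse, gave 183.9, 126.3 and 146.1. SLC26A6, an anion exchanger, gave 127.3, 111.6 and 90.1, and SLC26A11, a sulfate carrier, gave 381.9, 297.9 and 381.0. The bicarbonate cotransporter SLC4A4, the exchangers SLC9A3, SLC9A4 and SLC26A3 and the iodide carrier SLC5A5 were not measured. SLC4A4 gave 20.3, 12.2 and 4.4, all under the floors, over the stages at which the ameloblast sum was 147.8, 5132.1 and 59202.3.

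Of the 3 calcium and phosphate genes, only SLC8B1 (NCLX), the sodium-calcium exchanger of the mitochondrial inner membrane, was measured. It had signals of 96.8, 74.7 and 46.5 and was 2.08-fold lower on E60 versus E40, a call lost with equal medians and after quantile normalization. The plasma membrane sodium-calcium exchanger SLC8A1 gave 17.5, 1.2 and 1.5, and the phosphate carrier SLC34A2 gave 15.04, 11.31 and 17.26, all under the floors. The potassium-chloride cotransporter SLC12A4 (KCC1), the only gene of its class, gave 428.6, 370.2 and 394.9. None of the measured mineral and pH carriers was called higher as deposited in any pair. Higher calls were also rare among all tested genes, at 2.73% (E50 versus E40), 4.37% (E60 versus E50) and 4.44% (E60 versus E40). With so few of these carriers measured, the lack of higher calls is not a result about them as a group.

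Mitochondrial carriers of the SLC25 family mostly stayed within 2-fold. Of 21 genes, 20 were measured and 1 was called, and the medians of their log2 fold change were 0.09 at the first step, 0.01 at the second and 0.15 over both. The call was on E50 versus E40. In that pair 2.2% of all brighter genes were higher and 1.53% lower, against 3.27% and 14.6% of dimmer genes. Level was not matched, so the low count is not a result about mitochondrial carriers. SLC25A21, which carries oxodicarboxylates of lysine and tryptophan breakdown, had signals of 1806.1, 883.1 and 1123.5 and was 2.05-fold lower on E50 versus E40. The call was lost with equal medians. The next 4 examples were chosen after their values were seen. SLC25A3, the phosphate carrier that supplies ATP synthase, gave 11241.7, 11347.6 and 11347.2. The ADP/ATP carriers SLC25A6 and SLC25A5 gave 15987.5, 17856.4 and 17559.1 for SLC25A6 and 2165.3, 2549.9 and 2736.7 for SLC25A5. SLC25A4, the ADP/ATP carrier of heart and skeletal muscle, gave 1003.2, 788.5 and 794.6, which was 1.27-fold lower on E50 versus E40, where the muscle markers summed to 811.0 on E50 and 34298.1 on E40. The probes of these close relatives were not compared by sequence, so shared hybridization between them cannot be judged.

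Other mitochondrial carriers came near the limit. SLC25A36, a pyrimidine nucleotide carrier, gave 115.9, 59.3 and 112.3, which was 1.95-fold lower on E50 versus E40 and 1.89-fold higher on E60 versus E50. SLC25A30 gave 273.8, 181.2 and 344.3, with a ratio of 1.90 on E60 versus E50, and SLC25A48 gave 51.5, 43.5 and 78.4, with a ratio of 1.80. SLC25A1, the citrate carrier, gave 2185.0, 3421.0 and 2816.4, and SLC25A39, linked to mitochondrial glutathione import, gave 368.7, 585.8 and 473.7. Both were called higher on E50 versus E40 only with equal medians. SLC25A17 of this family, a peroxisomal carrier, gave 1569.4, 2304.0 and 1869.6.

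Known carriers of the SLC35 family bring nucleotide sugars and related nucleotides into the Golgi apparatus and endoplasmic reticulum for glycosylation and sulfation. The 10 genes of the family, classed by family and not by a known substrate of each, were all measured, and 2 were called. SLC35A3, the carrier of UDP-N-acetylglucosamine, had signals of 103.4, 150.1 and 228.4, climbing at both steps, and was 2.21-fold higher on E60 versus E40. SLC35C1, the GDP-fucose carrier of the Golgi, had signals of 62.4, 30.3 and 33.9 and was 2.06-fold lower on E50 versus E40. That call was lost with equal medians and after quantile normalization, where its log2 fold change was -0.36. SLC35B2, which brings the sulfate donor PAPS into the Golgi, gave 544.0, 680.1 and 670.7, and SLC35B1, an ATP carrier of the endoplasmic reticulum, gave 1159.3, 1178.9 and 1644.9. SLC35A4, SLC35B3, SLC35C2, SLC35D2, SLC35F5 and SLC35F6 were within 2-fold in all pairs.

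Of the 6 carriers of organic ions, 4 were measured and 0 were called. SLC22A3, an organic cation carrier, gave 144.7, 82.7 and 97.1, and SLC22A5, the carnitine carrier, gave 55.9, 40.2 and 52.5. SLC22A6 gave 42.4, 28.4 and 36.2, and its neighbour in the reference annotation, SLC22A8, gave 25.2, 18.8 and 5.1. The rule also took in 3 genes that are not carriers, and none was called. SLC9A3R1 and SLC9A3R2, scaffold proteins that hold exchangers at the membrane, gave 977.5, 1115.3 and 1216.6 for SLC9A3R1 and 472.7, 411.4 and 557.1 for SLC9A3R2. SLC2A4RG, a transcription factor named for the GLUT4 gene, gave 1006.7, 1194.3 and 1098.4.

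The order of stages was counted over all 101 measured genes. The signal, raised to the floor where it lay under it, was lowest on E50 in 44 solute carriers (43.6%), against 28.6% of all measured genes, and highest on E50 in 24 (23.8%), against 34.3%. It climbed at both steps in 17 genes (16.8%, against 18.1% of all genes) and declined at both in 16 (15.8%, against 18.9%). Of the 22 called genes, 10 were lowest on E50, 9 declined at both steps, 3 climbed at both and 0 were highest on E50. The share lowest on E50 depended on scaling, at 25.7% of solute carriers and 16.6% of all genes with equal medians, 26.7% and 21.1% after quantile normalization, and 48.5% and 39.2% with housekeeping scaling. The floor was itself lowest on E50, which sets this order in part for the 11 genes under it on 1 or 2 arrays. Level was not matched in these shares. On E50 versus E40 the median log2 fold change over all genes was -0.19 for dimmer and 0.16 for brighter genes. Of the 99 solute carriers tested in that pair, 74 were dimmer. The share lowest on E50 is therefore not a result about solute carriers as a set. These shares are a description of 3 arrays and carry no test.

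Different probe sets of a gene give the only repeat reading of a change within an array, although they share the RNA and the hybridization and are no replicates of a stage. Solute carrier genes with more than 1 probe set numbered 39. On E50 versus E40, 37 further probe sets of 31 genes differed from the chosen one by a median of 0.50 on the log2 scale, against 0.39 over all genes, and 19 of the 37 had the same sign. The medians were 0.47 for E60 against E50 and 0.44 for E60 against E40, with the same sign in 23 of 39 and 24 of 36. Beside genes called on the chosen probe set, the further probe sets had the same sign in 4 of 4, 2 of 2 and 4 of 4 cases, and 3, 1 and 3 of them also passed 2-fold. Conversely, 6, 8 and 5 further probe sets passed 2-fold beside a gene that was not called. The cases beside a called gene came from SLC15A2, SLC30A3, SLC1A1 and SLC9A5 only, and on E60 versus E50 from SLC15A2 alone. Further probe sets under the floor on both arrays of a pair were left out, among them those of SLC2A4 and SLC27A6.

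**Figure D4:**
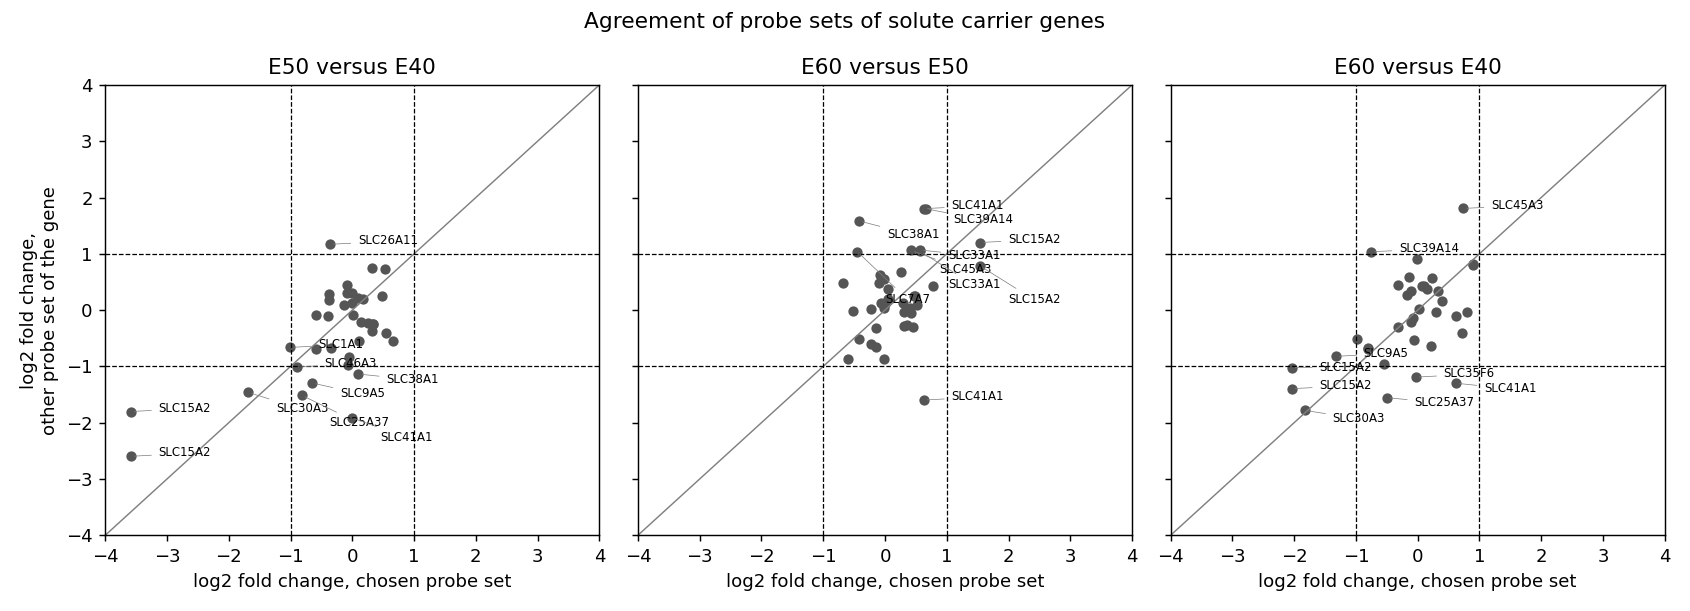
Log2 fold change of each further probe set (vertical axis) against that of the chosen probe set of the same gene (horizontal axis) in each pair of stages, with the line of equality and dashed lines at the 2-fold limit. SLC15A2 and SLC30A3 lie low on both axes on E50 versus E40, while SLC41A1 and SLC38A1 lie past the limit on the vertical axis alone.

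The uncalled genes with a disagreeing probe set are uncertain. For SLC41A1 the further measured probe sets gave 64.9, 6.4 and 60.1 on one and 53.7, 66.1 and 16.8 on the other, which were at least 3.49-fold higher and at least 3.03-fold lower on E60 versus E50. SLC38A1, a glutamine carrier, gave 546.6, 585.6 and 438.1 on the chosen probe set, whereas a further one gave 37.9, 6.0 and 51.6. SLC25A37 (mitoferrin-1), which brings iron into mitochondria for haem synthesis, gave 602.6, 341.5 and 424.8, and its other probe set gave 479.2, 167.8 and 163.1 and was 2.94-fold lower on E60 versus E40. SLC45A3 gave 77.9, 97.0 and 129.8, and a further probe set gave 48.3, 80.9 and 168.9, which was 3.50-fold higher on E60 versus E40. The other probe set of SLC26A11 gave 30.7, 69.1 and 57.6 and was 2.25-fold higher on E50 versus E40, opposite in direction to the chosen one. A further probe set of SLC35F6 gave 127.1, 87.2 and 55.7, against 537.1, 581.2 and 526.3 on the chosen one, and SLC7A7, SLC33A1, SLC46A3 and SLC9A5 also had a further probe set past 2-fold in a pair without a call.

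Genes that work beside solute carriers were listed by role, and of 38 listed genes 24 had a symbol on the array and 19 were measured. Against E40, 2 were higher and 1 lower on E50, and 4 were higher and 1 lower on E60. Over all tested genes, 2.73% were higher and 7.98% lower on E50, and 4.44% and 7.21% on E60. The step to E60 from E50 had 3 higher and 0 lower, against 4.37% and 1.75% of all tested genes. ATP2B1 (PMCA1), the plasma membrane calcium pump, had signals of 1121.1, 962.0 and 2876.5 and was 2.99-fold higher on E60 versus E50. EMB (embigin), which escorts lactate carriers to the cell surface, had signals of 104.6, 375.4 and 439.8 and was 3.59-fold higher on E50 and 4.21-fold higher on E60, each versus E40. BSG (basigin), which does the same for a wider set of carriers, gave 920.3, 1038.7 and 927.7. MT3, a zinc-binding metallothionein, had signals of 97.3, 84.6 and 487.4 and was 5.76-fold higher on E60 versus E50, while MT1A gave 178.4, 93.4 and 99.9.

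The other partner genes called higher were 2 water channels and a carbonic anhydrase. AQP1 gave 571.5, 507.8 and 1061.9 and was 2.09-fold higher on E60 versus E50, and AQP3, a channel for water and glycerol, gave 815.6, 1849.5 and 1216.9 and was 2.27-fold higher on E50 versus E40. CA3, a cytosolic carbonic anhydrase, gave 897.3, 1578.4 and 1913.2 and was 2.13-fold higher on E60 versus E40. ATP1B1, the sodium pump subunit whose partner maintains the gradient that many solute carriers use, gave 4824.5, 4710.2 and 8324.4. SLCO2B1, an organic anion carrier of a separate nomenclature, was the only partner gene called lower, at 186.8, 83.3 and 82.8, which was 2.24-fold lower on E50 and 2.25-fold lower on E60, each versus E40. The remaining measured partners were within 2-fold in all pairs, and TFRC, CFTR, AQP5, ATP2A3 and SLCO1A2 were not measured.

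**Figure D5:**
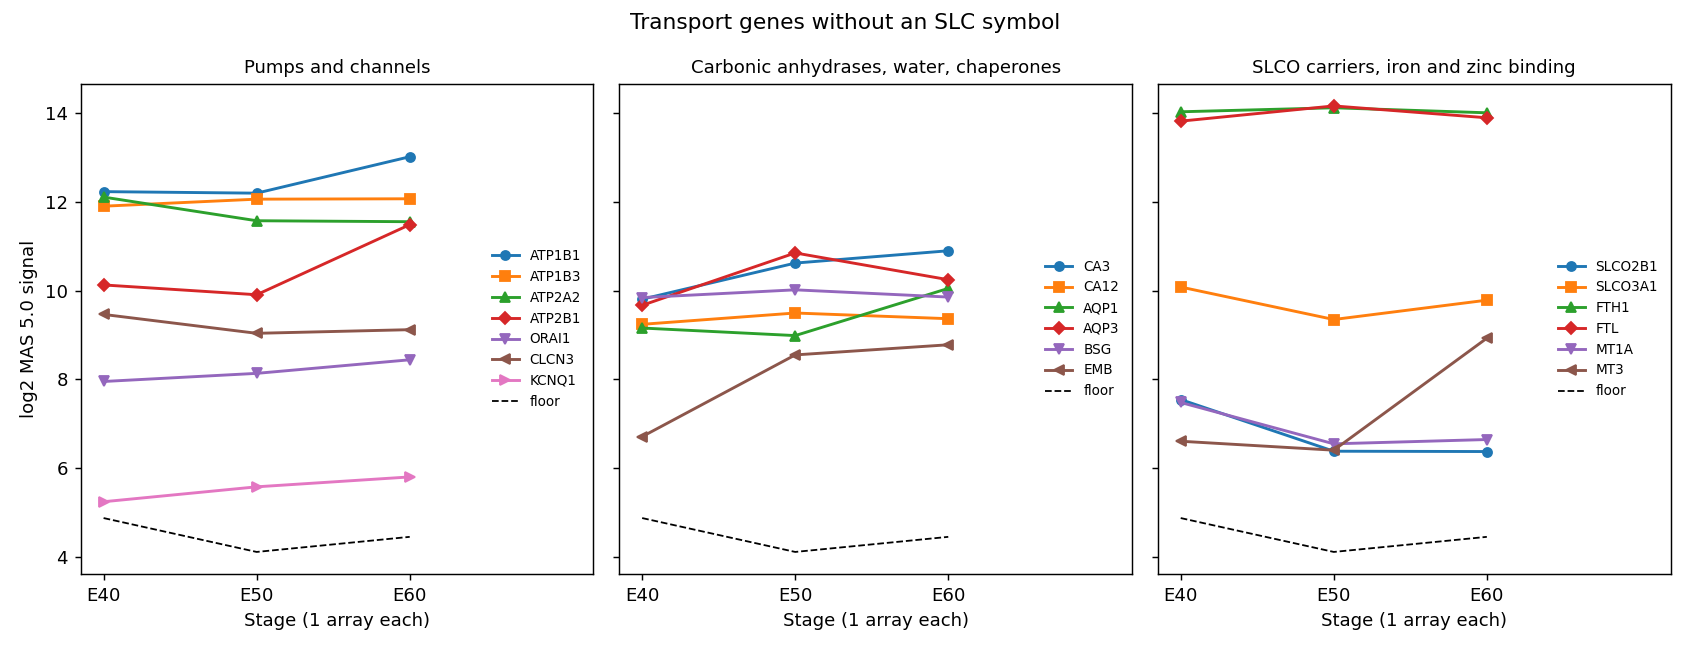
Signal on a log2 scale against stage (E40, E50, E60) for transport partner genes, with 1 array per stage and no error bars. ATP2B1, AQP1 and MT3 are highest on E60, EMB is higher on E50 and E60 than on E40, and SLCO2B1 is lower on E50 and E60 than on E40.

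The rule for a measured gene had its own margin. Just inside it were SLC28A1, a nucleoside carrier, with 5.6, 3.6 and 23.9, SLC23A2, an ascorbate carrier, with 4.6, 14.6 and 24.3, and SLC22A8 with 25.2, 18.8 and 5.1. Just outside it were SLC6A4 with 27.2, 9.7 and 17.2, SLC9A3 with 25.6, 5.6 and 5.5, SLC11A1 with 19.0, 12.7 and 20.0, and SLC1A3 with 22.2, 7.8 and 7.8. The 19 genes that were not measured included carriers known from liver, kidney or gut, among them SLC10A1, SLC17A1, SLC22A2, SLC2A2, SLC7A9 and SLC26A3, together with SLC23A1, SLC25A51, SLC28A3, SLC34A2, SLC4A4, SLC5A5, SLC6A14, SLC8A1 and SLC9A4. A signal under the floor does not show that a gene was silent, because the number of arrays and the brightness of the probe set limit the precision. Of the measured genes, 90 were at or above the floor on all 3 arrays and 11 were under it on 1 or 2.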

How the data were processed

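RNA from pooled last deciduous molar germs of 1 litter per stage was hybridized to 3 arrays, 1 per stage (E40, E50, E60). The authors deposited log2 signals made with MAS 5.0 in GeneSpring 11.0, in 1 table; genome build and detection calls were not used here. Arrays had been scaled to a common trimmed mean, which can hide a shift of all genes.

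The table held 24123 probe sets, 124 of them array controls that were excluded. Of the remaining 23999, 10069 had 1 gene symbol, 198 several and 13732 none in the platform annotation, and only the first were named. Of the solute carrier genes, 118 matched the reference gene table by gene ID with 0 symbols changed and 2 did not match, and 5 probe sets with several names were not used. A gene with several probe sets was read on the one brightest by mean log2 signal, signals under the 25th percentile of their array were raised to it, and genes under it on both arrays of a pair were not tested in that pair. A raised signal that passed the other array's signal gave no printed fold, but its log2 value stayed in the tested counts and medians. Without such genes the solute carrier medians were -0.09 (E50 versus E40), 0.16 (E60 versus E50) and 0.01 (E60 versus E40). With them they were -0.09, 0.18 and -0.02. Genes past 2-fold were called. With 1 array per stage no test was possible, and the number of arrays limits the precision.

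Genes past 2-fold in some pair, all sugar, calcium, phosphate and acid-base carriers, those with disagreeing probe sets and all measured partner genes could be named, with the 10 largest ratios of each direction and pair. Substrate classes were set by family. Members and lists were chosen with earlier results of these data known. In all, 10 alternatives changed the floor, scaling, probe set rule, membership or threshold, and 1 was added after seeing the data. Python 3.11.15, pandas 2.3.3, numpy 2.4.6 and matplotlib 3.10.9 were used, and the calling step was tested on simulated data.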

Additional observations from a re-analysis of the deposited data

How the results depend on the processing

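Gene ratios were recomputed for the 22 called solute carriers only. No value past 2-fold changed sign under the alternatives run. For gene ratios, equal medians, housekeeping scaling and the changes of membership could not have done so, because their shifts were under 2-fold or absent. Values within 2-fold changed sign in 9 of 604 ratios of these genes and 42 of 381 class medians. Among them were SLC39A14 on E60 versus E40 (-0.75 on the log2 scale, 0.32 averaged over probe sets), SLC29A1 on E50 versus E40 (-0.26, 0.37 after quantile normalization) and SLC35A3 in that pair (0.54, -0.12 with the floor at the 50th percentile). Of these 604 ratios recomputed under an alternative, 571 kept their value within 1.5 times and 33 moved. Much of that count was fixed in advance. The changes of membership leave a gene's ratio as it is, and equal medians and housekeeping scaling shift all ratios of a pair by the same amount, here under that limit. The count is therefore no measure of how stable the ratios are. Of the 381 class medians 263 stayed within 0.1 on the log2 scale and 118 moved. On E50 versus E40 (0 higher, 12 lower), the counts of higher genes were 2 with no floor, 7 with equal medians, 2 after quantile normalization and 1 with the mean over probe sets. The counts of lower genes were 19 with no floor, 4 with the floor at the 50th percentile, 7 with equal medians and 5 at a 3-fold threshold. All 7 and all 8 lower genes under equal medians and quantile normalization were among the 12. The median of -0.09 was -0.20 with no floor, 0.30 with equal medians, 0.14 after quantile normalization and -0.20 with housekeeping scaling (13 genes), so its side of 0 is set by the scaling.

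On E60 versus E50 (4 higher, 1 lower), higher genes numbered 7 with no floor, 1 with the 50th percentile, 1 with a common floor, 7 with housekeeping scaling and 1 at 3-fold. The common floor removed SLC15A2, SLC2A4 and SLC36A2 from the higher genes and SLC29A1 from the lower ones. Lower genes numbered 6 with no floor, 0 with the 50th percentile, 0 with the common floor, 2 with equal medians, 2 after quantile normalization, 3 with the mean over probe sets and 0 at 3-fold. The median of 0.18 was 0.30 with housekeeping scaling.

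On E60 versus E40 (3 higher, 12 lower), higher genes numbered 7 with no floor, 1 with the 50th percentile, 10 with equal medians, 8 after quantile normalization and 1 at 3-fold. Lower genes numbered 23 with no floor, 4 with the 50th percentile and 3 at 3-fold. The median of -0.02 was 0.29 with equal medians and 0.16 after quantile normalization. The shift of all genes accounts for the equal-medians values by construction. For the other settings the cause was not tested.

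No paired analysis was possible because the labels give 1 sample per stage, and no array could be left out without losing a stage. Leaving out the 3 genes that are not carriers, probe sets with shared suffixes, or genes whose raised signal passes the other signal (added after seeing the data) kept every count within 1.5 times. Dim genes near the floor limit all counts.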

Other observations

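The SLC25 and SLC35 families were set beside all other carriers, in a grouping chosen after the values were seen. Of 30 measured mitochondrial and SLC35 carriers, 3 were called in some pair, SLC25A21, SLC35A3 and SLC35C1, against 19 of 68 measured carriers of all other classes. The medians of the log2 fold change were 0.03 for the mitochondrial and SLC35 carriers and -0.33 for the other classes at the step to E50, 0.03 and 0.23 at the step to E60, and 0.15 and -0.12 over both steps. The grouping is a description with no test, and it follows family rather than location: SLC8B1, SLC38A9, SLC37A4 and SLC33A1, which also lie in internal membranes, were counted among the other classes. Level was not matched between these sets, and the share of all genes called in some pair was not counted beside them.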
